A study of Homo sapiens with 6 samples.

Results

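The 32 genes described here are established transcriptional targets of the tumour suppressor p53, chosen by name from textbook knowledge, with earlier results of these data known but with no measured value in the rule. All 32 were found among the 32575 genes listed in the 6 libraries, and all 32 had enough reads to be tested. They are treated by role: 4 genes that feed back on p53, 5 genes of cell cycle arrest, 11 genes of cell death, 4 genes of DNA repair and nucleotide supply, and 8 genes of metabolism, redox balance and secretion. The cells were SH-SY5Y, an established human neuroblastoma line.

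Messenger RNA was sequenced in 3 groups with 2 libraries each. Control cells carried a control hairpin, CSA knockdown cells a hairpin against CSA (the product of ERCC8), and CSB knockdown cells a hairpin against CSB (the product of ERCC6). All groups, controls included, were infected with lentivirus, selected with puromycin and grown on for some weeks, and none was labelled as treated with a DNA-damaging agent. The genotype label calls the depleted cells mutants and the controls WT, whereas the growth protocol describes hairpins, so they are called knockdowns. The labels do not say how many hairpins were used per gene or if a group's libraries stem from separate cultures, so p-values measure only the spread between these libraries, which may be technical.

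p53 is a transcription factor that is held low in unstressed cells by MDM2, a ubiquitin ligase that marks it for destruction. DNA damage, blocked transcription and other stresses release it, and it then binds paired copies of a short motif near its targets and raises their transcription. The targets halt the cell cycle, trigger apoptosis, repair DNA, adjust metabolism, or, as MDM2 itself does, switch p53 off again. CSA and CSB start the repair of lesions that stall RNA polymerase II, and loss of either causes Cockayne syndrome.

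Most of the p53 targets fell after CSA knockdown and rose after CSB knockdown. Against the controls, 22 of the 32 fell and 1 rose with the CSA hairpin, and 9 did not pass the test. With the CSB hairpin, 23 of the 32 rose and 1 fell, and 8 did not pass. The falls with the CSA hairpin depended more on single libraries than the rises with the CSB hairpin, as described below. Among all tested genes, 10.4% fell and 8.37% rose with the CSA hairpin, and 14.8% rose and 8.86% fell with the CSB hairpin. ZMAT3, an RNA-binding protein, was 0.334-fold its control level after CSA knockdown and 1.96-fold after CSB knockdown. GDF15, a secreted stress cytokine, was 0.349-fold and 2.96-fold its control level in the same order.

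The levels are scaled counts, that is, the reads of a gene divided by 1 size factor per library and not by gene length. Fold changes are on the log2(scaled count + 1) scale, which understates the change of low genes, and are given with their standard error (SE). A gene rose or fell where limma's test over all 28388 tested genes gave an adjusted p below 0.05. The 2 knockdowns share their control libraries, so their values are set side by side and no agreement between them is counted.

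The hairpin targets followed their labels. ERCC8 was at 219 and 217 in the control libraries, 61.8 and 57.2 after CSA knockdown, and 186 and 215 after CSB knockdown. ERCC6 was at 615 and 593, 618 and 611, and 258 and 302 in the same order. The log2 fold changes were -1.86 ± 0.13 for ERCC8 with CSA knockdown (adjusted p = 8.75e-07) and -1.11 ± 0.08 for ERCC6 with CSB knockdown (adjusted p = 2.13e-06). Library depth ran from 19368272 to 26758162 gene reads, and mitochondrial genes took 5.73% to 6.51%. All 12 noradrenergic neuroblastoma markers looked for were detected, though tyrosine hydroxylase was at 2.86 to 20.3. Their summed level was 139882 to 143895 in controls, 156383 to 163255 after CSA knockdown and 131356 to 132612 after CSB knockdown. The sum does not describe each marker, since 4 of the 12 rose and 4 fell with each knockdown. Their median log2 fold change was -0.03 with CSA knockdown and -0.09 with CSB knockdown. Of 6 fibroblast markers, 4 fell with CSA knockdown and 4 rose with CSB knockdown, and none was at 0. Their summed level was 11247 to 11587 in controls, 6715 to 6947 after CSA knockdown and 13727 to 14516 after CSB knockdown, so it moved in the direction of the p53 targets, and its part in their change was not tested. Summed levels were 21.9 to 34.7 for leukocyte, 5.78 to 17.2 for endothelial and 168 to 224 for epithelial markers, and PTPRC was at 0 in all 4 knockdown libraries. In RNA from a whole culture, fewer cells of a type and less RNA per cell cannot be told apart.

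Promoter windows were searched for the binding motif of p53. The genes were chosen as known p53 targets, so a motif near them is no independent support for that choice. A full site is a pair of adjacent 10-letter copies, each with 3 purines, a C, a pair of A or T letters, a G and 3 pyrimidines, and its consensus reads the same on both strands. Windows ran from 250 bases before to 50 bases after each gene start (RefSeq, GRCh38.p14), and 26 of the 32 genes had at least 1 window. A match had at most 3 letters off the consensus, the core C and G of each copy intact and no spacer. The 8 matches are shown because they are the sites that these windows hold in the genes described next, in capitals with up to 5 flanking bases, 5′ to 3′ on the strand of the gene.
DDB2, chr11:47214964-47214993, plus strand: gctccAAGCTGGTTTGAACAAGCCCtgggc
AEN, chr15:88621301-88621330, plus strand: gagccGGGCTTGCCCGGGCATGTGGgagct
FAS, chr10:88991304-88991333, plus strand: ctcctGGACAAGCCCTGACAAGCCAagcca
MDM2, chr12:68808918-68808947, plus strand: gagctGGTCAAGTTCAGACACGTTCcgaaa
FDXR, chr17:74872991-74873020, minus strand: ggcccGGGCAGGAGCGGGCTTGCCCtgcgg
GDF15, chr19:18386181-18386207, plus strand: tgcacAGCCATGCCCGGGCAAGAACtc
PMAIP1, chr18:59899806-59899835, plus strand: gtcggGAGCGTGTCCGGGCAGGTCGcgctc
SESN1, chr6:109009013-109009042, minus strand: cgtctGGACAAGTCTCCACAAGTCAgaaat

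The DDB2 site had 1 letter off the consensus, those of AEN, FAS and MDM2 had 2, and those of FDXR, GDF15, PMAIP1 and SESN1 had 3. The MDM2 site lies 94 or 101 bases before a gene start inside the locus, depending on the transcript. In all, 8 of the 26 genes (30.8%) held a match, against 373 of 27305 genes of the table (1.37%). At the stricter limit of 1 letter, DDB2 alone matched (3.85% of the 26 genes), against 19 genes (0.0696%) of the table. CDKN1A, BAX and the other members with a window had no match in this window, which says only that these letters are not in it. A match describes the sequence and does not show binding.

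**Figure D1:**
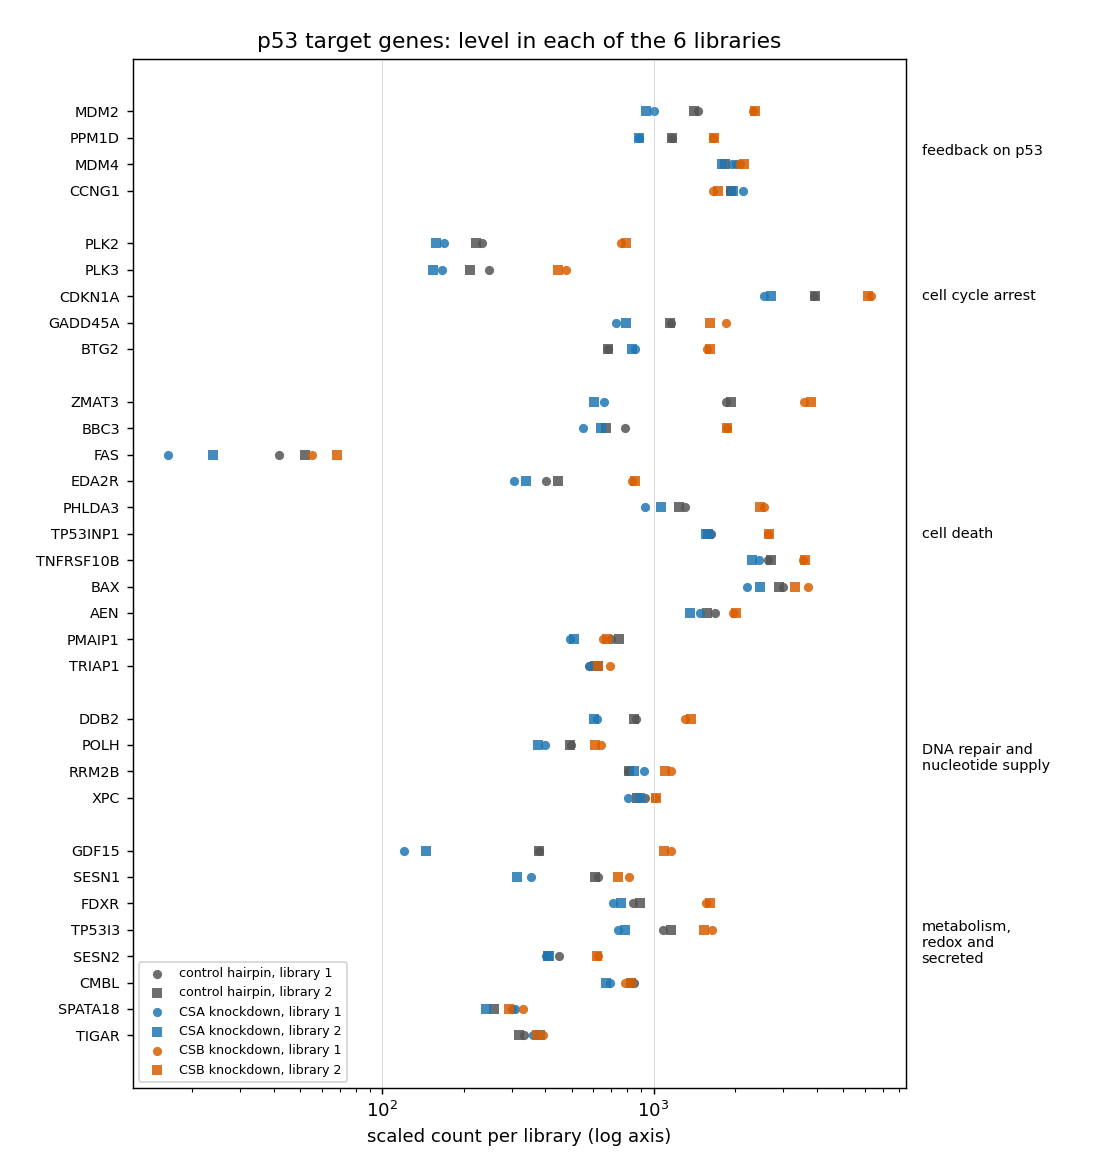
Scaled count (log axis) of each of the 32 p53 target genes in the 6 libraries, grouped by role; circles are library 1 and squares library 2 of the control (grey), CSA knockdown (blue) and CSB knockdown (orange). For MDM2, CDKN1A, ZMAT3 and GDF15 the blue points lie left of the grey and the orange points right of them, whereas the 3 groups lie close together for TRIAP1, SPATA18 and MDM4.

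Among the 4 feedback genes, 2 fell with CSA knockdown, and 2 rose and 1 fell with CSB knockdown. Of all tested genes, 10.4% fell with CSA knockdown, and 14.8% rose and 8.86% fell with CSB knockdown. MDM2 (hg38 chr12:68808172-68850686, plus strand) was at 1459 and 1412 in controls, 1008 and 936 after CSA knockdown, and 2326 and 2371 after CSB knockdown. The 3 groups did not overlap, with the CSA libraries lowest and the CSB libraries highest. MDM2 fell with CSA knockdown (log2 fold change -0.56 ± 0.06, adjusted p = 2.23e-05) and rose with CSB knockdown (0.71 ± 0.06, adjusted p = 3.31e-06). PPM1D encodes WIP1, a phosphatase that takes activating phosphates off p53 and the ATM pathway. Its level was 1166 and 1174 in controls, 887 and 880.2 after CSA knockdown, and 1653 and 1676 after CSB knockdown, in the same order as MDM2 and without overlap. The changes of PPM1D were -0.40 ± 0.05 (adjusted p = 1.92e-04) and 0.51 ± 0.05 (adjusted p = 2.74e-05).

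MDM4, the partner of MDM2 that blocks the activation domain of p53, did not pass in either comparison with controls. It was at 2014 and 1833 in controls, 1940.2 and 1782 after CSA knockdown, and 2089.7 and 2154 after CSB knockdown, and the CSA libraries overlapped the controls. Cyclin G1, encoded by CCNG1, recruits a phosphatase that activates MDM2. CCNG1 went the other way from the other feedback genes, at 1919 and 1922 in controls, 2136 and 1961 after CSA knockdown, and 1651 and 1723 after CSB knockdown. It was the single member to fall with CSB knockdown (-0.19 ± 0.06, adjusted p = 0.0326), and its value with CSA knockdown was 0.09 ± 0.06 (adjusted p = 0.323). Without either control library or either CSB library, the fall of CCNG1 no longer passed (adjusted p up to 0.247).

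All 5 genes of cell cycle arrest rose with CSB knockdown, and 4 of the 5 fell with CSA knockdown. The shares of all tested genes were 14.8% and 10.4% in the same order. CDKN1A encodes p21, the inhibitor of cyclin-dependent kinases through which p53 arrests the cell cycle before DNA replication. The gene (chr6:36676460-36687339, plus strand) was at 3903 and 3929.7 in controls, 2548 and 2706 after CSA knockdown, and 6317 and 6186 after CSB knockdown. The groups were well apart, at 3916 ± 18.9, 2627 ± 111 and 6252 ± 93.0 (SD, n = 2 each), a fall of 0.58 ± 0.05 on the log2 scale (adjusted p = 6.31e-06) and a rise of 0.67 ± 0.05 (adjusted p = 1.76e-06). Per kilobase of exon, CDKN1A had the highest control level of the 32 genes, at 1284 scaled counts, against a median of 212 and a lowest level of 12.7 for FAS.

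PLK2, a polo-like kinase that acts in S phase and on centrioles (chr5:58453982-58460260, minus strand), had the largest rise of the 32 genes with CSB knockdown. Its level was 234 and 223 in controls, 169 and 158 after CSA knockdown, and 756 and 793 after CSB knockdown. The CSB libraries stood far above the other 4, and the changes of PLK2 were -0.48 ± 0.08 (adjusted p = 0.00162) and 1.76 ± 0.08 (adjusted p = 7.19e-08). Its relative PLK3, which is activated by stress, was at 248 and 211, then 167 and 154, then 478 and 446, with changes of -0.51 ± 0.10 (adjusted p = 0.00404) and 1.01 ± 0.10 (adjusted p = 2.1e-05). GADD45A, which binds PCNA and stress kinases, was at 1158 and 1154, then 728 and 792, then 1853 and 1612. Its CSB libraries differed from each other more than its controls did, and both still lay above all other libraries (-0.61 ± 0.07, adjusted p = 8.56e-05, and 0.58 ± 0.07, adjusted p = 9.73e-05).

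BTG2, an antiproliferative factor that recruits the mRNA deadenylase complex, was the single member to rise with CSA knockdown. It was at 682 and 679 in controls, 855 and 832 after CSA knockdown, and 1577 and 1613 after CSB knockdown. BTG2 thus increased in both knockdowns, by 0.31 ± 0.06 (adjusted p = 0.0021) and 1.23 ± 0.06 (adjusted p = 5.8e-08), and no library of either overlapped the controls. Without control library 1 or 2, the changes with CSA knockdown of BTG2, GADD45A, PLK2 and PLK3 no longer passed (adjusted p up to 0.0674, 0.0737, 0.0771 and 0.133), nor did that of PLK3 without any other library. The rise of GADD45A with CSB knockdown was also lost when either control was left out (adjusted p at most 0.0624).

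Of the 11 cell death genes, 9 fell and none rose with CSA knockdown, and 8 rose and none fell with CSB knockdown. Over all tested genes, 10.4% fell and 8.37% rose with CSA knockdown, and 14.8% rose and 8.86% fell with CSB knockdown. Of the falls in this role, only those of ZMAT3 and PMAIP1 did not depend on any single library. ZMAT3, which regulates the stability and splicing of mRNAs (chr3:179017223-179072279, minus strand), had the largest fall of all 32 genes with CSA knockdown. It was at 1842 and 1928 in controls, 658 and 603 after CSA knockdown, and 3579 and 3800.0 after CSB knockdown. Neither knockdown came near the controls, and ZMAT3 changed by -1.58 ± 0.06 (adjusted p = 1.45e-08) and 0.97 ± 0.06 (adjusted p = 5.23e-07).

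The BCL2 family members differed in how far they moved. BBC3 encodes PUMA, a BH3-only protein that sets off apoptosis at mitochondria. It was at 783 and 670.4 in controls, 549.5 and 642 after CSA knockdown, and 1856 and 1865 after CSB knockdown. The rise with CSB knockdown was large (1.36 ± 0.09, adjusted p = 5.37e-07), whereas the CSA libraries lay just under the lower control (-0.29 ± 0.09, adjusted p = 0.0369). BAX, the pore-forming effector, was at 3006 and 2889, then 2210.1 and 2464, then 3697 and 3304, with changes of -0.34 ± 0.07 (adjusted p = 0.00365) and 0.25 ± 0.07 (adjusted p = 0.0186). PMAIP1 encodes NOXA, which neutralises MCL1. Its level was 696 and 745, then 493 and 510.2, then 651 and 672. PMAIP1 fell with CSA knockdown (-0.52 ± 0.07, adjusted p = 1.59e-04), and with CSB knockdown it lay below both controls without passing (-0.12 ± 0.07, adjusted p = 0.23). The falls of BBC3 and BAX, and the rise of BAX, were each lost on leaving out any 1 of the 6 libraries (adjusted p up to 0.414, 0.201 and 0.315). The fall of BBC3 was also lost with TMM scaling, the length trend removed, no filter or a fit of the groups compared (adjusted p up to 0.108), and the rise of BAX with DESeq2, TMM or median-of-ratios scaling or the length trend removed (adjusted p up to 0.154).

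Death receptors rose or fell from very different levels. EDA2R, the X-linked ectodysplasin A2 receptor, was at 403 and 446 in controls, 306 and 339.5 after CSA knockdown, and 835 and 854 after CSB knockdown (-0.39 ± 0.08, adjusted p = 0.00425, and 0.99 ± 0.08, adjusted p = 3.58e-06). TNFRSF10B encodes the TRAIL receptor DR5 and was at 2629.8 and 2698, then 2447 and 2313, then 3545 and 3621 (-0.16 ± 0.05, adjusted p = 0.0437, and 0.43 ± 0.05, adjusted p = 6.91e-05). In both genes the CSB libraries lay above the rest, at 1.99-fold the control mean for EDA2R and 1.35-fold for TNFRSF10B. The CSA libraries lay below the controls, at 0.760-fold for EDA2R and 0.893-fold for TNFRSF10B. FAS was the lowest of the 32 genes, at 41.8 and 52.1, then 16.3 and 23.8, then 55.0 and 68.5. FAS fell by 1.20 ± 0.26 with CSA knockdown (adjusted p = 0.0066) and was 0.39 ± 0.26 with CSB knockdown (adjusted p = 0.347). FAS shares 8.9% of its exon bases with ACTA2 on the other strand, the smooth muscle actin gene, which fell from 564 and 575 to 42.3 and 64.8 with CSA knockdown and was at 304 and 307 with CSB knockdown. The labels do not say if the counting used strand, so reads of FAS and ACTA2 in that stretch cannot be told apart. The falls of EDA2R and FAS with CSA knockdown were lost without any 1 library (adjusted p up to 0.136 and 0.166), and that of TNFRSF10B without any 1 except CSA library 1 (adjusted p up to 0.254). TNFRSF10B also lost this call under 8 of the 12 other alternatives, edgeR, DESeq2 and TMM scaling among them (adjusted p up to 0.0844).

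PHLDA3, an inhibitor of the survival kinase AKT, was at 1309 and 1243 in controls, 928 and 1067 after CSA knockdown, and 2557 and 2468 after CSB knockdown. The groups did not overlap, and PHLDA3 changed by -0.36 ± 0.07 (adjusted p = 0.00276) and 0.98 ± 0.07 (adjusted p = 1.22e-06). TP53INP1, which promotes p53 phosphorylation and autophagy, showed a change in 1 comparison with controls, at 1626 and 1591, then 1613 and 1560.2, then 2641 and 2666. Its value was -0.02 ± 0.05 with CSA knockdown (adjusted p = 0.844), and it rose by 0.72 ± 0.05 with CSB knockdown (adjusted p = 1.24e-06). AEN, an apoptosis-associated nuclease, was at 1679 and 1578, then 1483 and 1364, then 1962 and 2008, and the groups did not overlap (a fall at adjusted p = 0.0393, and a rise of 0.29 ± 0.06 at adjusted p = 0.0038). TRIAP1, which protects cells from apoptosis, ran from 581 to 694 over all libraries, with CSA libraries that overlapped the controls, CSB libraries above both and values of 0.02 ± 0.07 (adjusted p = 0.888) and 0.15 ± 0.07 (adjusted p = 0.192). The fall of AEN was lost without any 1 library (adjusted p up to 0.303) and its rise without either control or CSB library (adjusted p up to 0.156), and the fall of PHLDA3 held only without CSA library 2 (adjusted p up to 0.174 without the others). AEN also lost its fall with DESeq2, TMM or upper quartile scaling, the length trend removed, no filter or a fit of the groups compared (adjusted p up to 0.0844).

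Among the 4 genes of repair and nucleotide supply, 2 fell with CSA knockdown and 3 rose with CSB knockdown. Over all tested genes the shares were 10.4% and 14.8%. DDB2 encodes the sensor of ultraviolet lesions in global genome repair, the branch that is not confined to transcribed strands. It was at 858 and 845 in controls, 620.0 and 604 after CSA knockdown, and 1302 and 1376 after CSB knockdown, 3 groups without overlap. DDB2, whose promoter window held the closest p53 motif of those shown, changed by -0.48 ± 0.06 (adjusted p = 1.31e-04) and 0.65 ± 0.06 (adjusted p = 9.43e-06). POLH, the polymerase that copies past ultraviolet lesions, was at 497 and 494, then 397 and 374, then 641 and 611 (-0.36 ± 0.07, adjusted p = 0.00322, and 0.34 ± 0.07, adjusted p = 0.00431).

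RRM2B, the ribonucleotide reductase subunit that p53 induces, was at 808 and 811 in controls, 921 and 845 after CSA knockdown, and 1160.4 and 1098 after CSB knockdown. It lay above the controls in all 4 knockdown libraries and passed with CSB knockdown (0.48 ± 0.06, adjusted p = 1.68e-04) but not with CSA knockdown (0.12 ± 0.06, adjusted p = 0.224). XPC, the other damage sensor of global genome repair, was at 927 and 871, then 806 and 892, then 1009 and 1019, and passed in neither (adjusted p = 0.457 and 0.0844). XPC shares 23.8% of its exon bases with AC093495.1 and 6.6% with LSM3, both on the other strand. LSM3 was at 1375 and 1316 in controls, 1075 and 1175 after CSA knockdown, and 1280 and 1193 after CSB knockdown. LSM3 fell with CSA knockdown (-0.26 ± 0.06, adjusted p = 0.0137) and did not pass with CSB knockdown (adjusted p = 0.212). As with FAS and ACTA2, reads of XPC and LSM3 in the shared stretch cannot be told apart. The changes of POLH were lost without either control, without CSA library 2 for the fall, or without either CSB library for the rise (adjusted p up to 0.0924 and 0.0846), the rise of POLH also with DESeq2 (adjusted p = 0.0982), and the rise of RRM2B without control library 1 or CSB library 1 (adjusted p up to 0.0524).

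Among the metabolic and secreted targets, GDF15 had the widest contrast between the knockdowns of all 32 genes. GDF15 (chr19:18374731-18389176, plus strand) was at 380.0 in both controls, 120.3 and 145 after CSA knockdown, and 1155 and 1093 after CSB knockdown. No group came near another, and GDF15 changed by -1.52 ± 0.09 (adjusted p = 4.4e-07) and 1.56 ± 0.09 (adjusted p = 3.53e-07). SESN1, a sestrin that restrains mTORC1, was at 623 and 608, then 352 and 314, then 810.3 and 738. The fall of SESN1 (-0.89 ± 0.08, adjusted p = 8.63e-06) was larger than its rise (0.33 ± 0.08, adjusted p = 0.00928). Its relative SESN2 was at 448 and 409.9, then 401 and 412, then 625 and 619, so its CSA libraries overlapped the controls (-0.08 ± 0.07, adjusted p = 0.552) and its CSB libraries did not (0.54 ± 0.07, adjusted p = 1.98e-04).

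TP53I3, a quinone oxidoreductase also called PIG3, was at 1084 and 1164 in controls, 737 and 787 after CSA knockdown, and 1642 and 1532 after CSB knockdown (-0.56 ± 0.06, adjusted p = 6.59e-05, and 0.50 ± 0.06, adjusted p = 1.36e-04). FDXR, the mitochondrial ferredoxin reductase, was at 837 and 888, then 708 and 762, then 1559 and 1613 (-0.23 ± 0.06, adjusted p = 0.0222, and 0.88 ± 0.06, adjusted p = 1.42e-06). In both genes the 3 groups kept apart, with the CSB libraries of FDXR far above the rest. CMBL, a hydrolase that activates prodrugs, was at 847 and 824, then 694 and 668, then 782 and 828, and fell with CSA knockdown (-0.30 ± 0.06, adjusted p = 0.00561) while its CSB libraries overlapped the controls.

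TIGAR, a phosphatase that lowers glycolytic flux, and SPATA18, a mitochondrial quality control protein, passed in no comparison of the main test. Under 2 of the 18 alternatives TIGAR rose with CSB knockdown. TIGAR was at 332 and 319, then 359 and 381, then 392 and 374, with all 4 knockdown libraries above the controls (adjusted p = 0.146 and 0.0545). SPATA18 ran from 241 to 329 with overlapping groups (adjusted p = 0.894 and 0.423). The fall of FDXR was lost without any 1 library and that of CMBL without either control or CSA library 2 (adjusted p up to 0.223 and 0.116). With CSB knockdown, the rise of SESN1 was lost without either control or CSB library, that of TP53I3 without control library 1 or CSB library 1, and that of SESN2 without CSB library 1 (adjusted p up to 0.184, 0.0574 and 0.0522). DESeq2 called neither the fall of FDXR nor the rise of SESN1, the fit of the groups compared lost the fall of FDXR, and removing the length trend lost the rise of SESN1 (adjusted p up to 0.0589 and 0.0963).

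**Figure D2:**
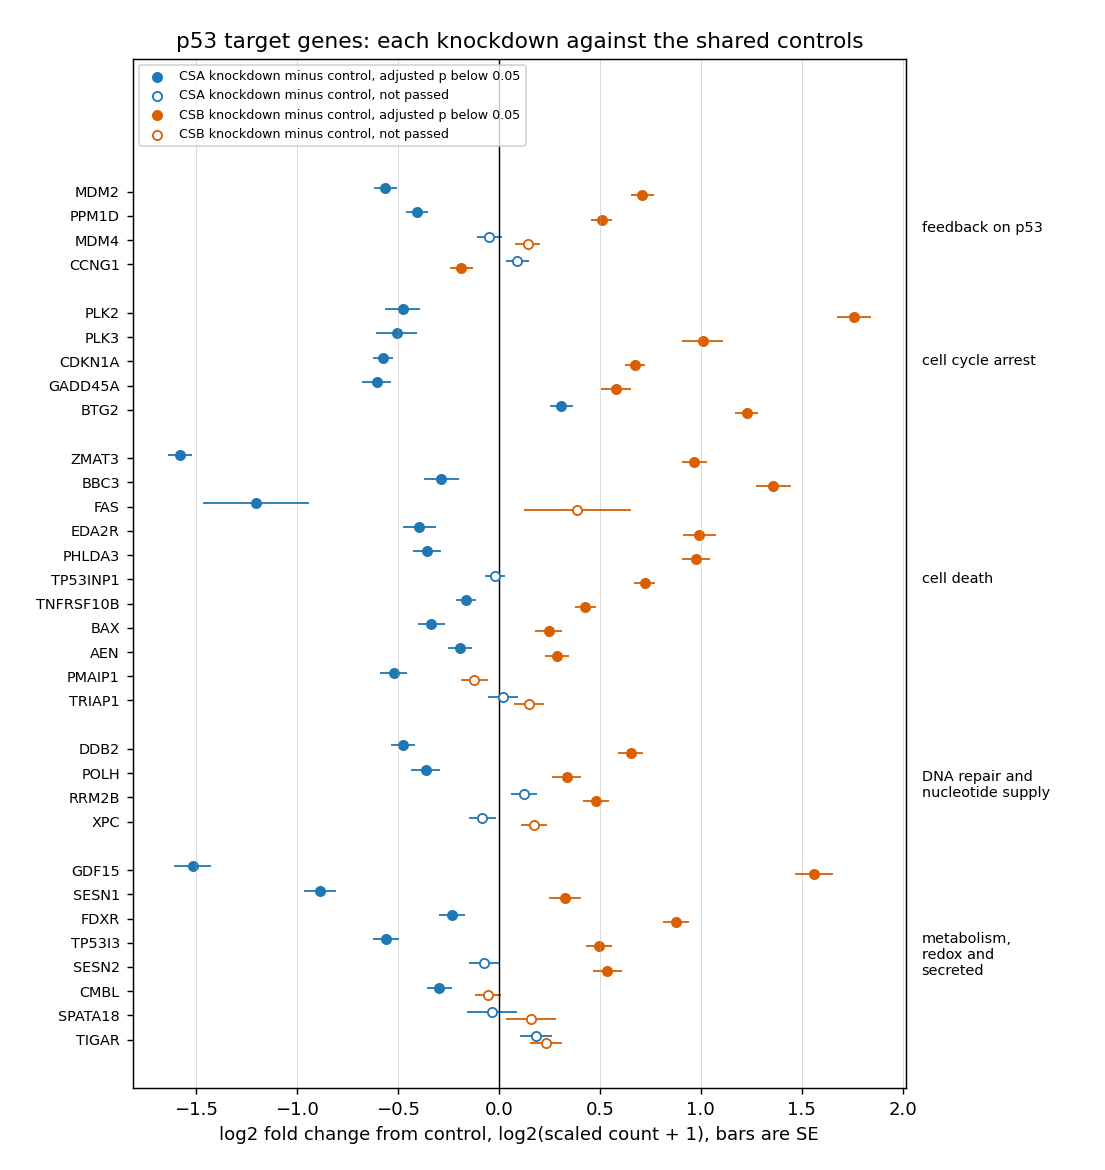
Log2 fold change from the shared controls (x axis, log2(scaled count + 1), bars are SE) of each p53 target with CSA knockdown (blue) and CSB knockdown (orange); filled points passed limma's test at an adjusted p below 0.05 and open points did not. Filled blue points lie left of 0 except for BTG2, and filled orange points lie right of 0 except for CCNG1.

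Over the whole list, the median change with CSA knockdown was -0.35, against 0.00 over all tested genes. The share called was 18.8% of all tested genes (8.37% higher and 10.4% lower), and 22 of the 32 members (68.8%) were called lower. With CSB knockdown the median was 0.50, against 0.10 over all tested genes. There 23.6% of all tested genes were called (14.8% higher and 8.86% lower), and 23 of the 32 members (71.9%) were called higher. The members are well expressed, and of the 12927 genes in their range of mean levels 18.9% were lower with CSA knockdown and 27.1% higher with CSB knockdown. With TMM scaling, the split of all genes with CSB knockdown was 3030 higher and 3244 lower, where the deposited scaling gave 4191 and 2515, and 22 members were then higher and 1 lower. Leaving out 1 library left 9 to 14 members lower with CSA knockdown, with 9 without either control, 12 without CSA library 2, 13 without either CSB library and 14 without CSA library 1. In the same refits 16 to 22 members were higher with CSB knockdown. Exons of 12 of the 32 genes overlap those of another gene, and in 5 the other gene had over 10% of the level of the member.

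The order of the libraries gave a similar count. In 22 of the 32 genes both CSA libraries lay below both controls, in 4 both lay above, and in 6 the groups overlapped. Among all tested genes, 27.1% lay below and 26.4% above. Both CSB libraries lay above both controls in 28 genes, below in 2 (CCNG1 and PMAIP1) and overlapped in 2 (SPATA18 and CMBL). The shares over all tested genes were 36.5% above and 22.2% below. Libraries of a group differed little in these genes, with a median coefficient of variation of 2.94% in controls, 5.37% after CSA knockdown and 3.17% after CSB knockdown, and FAS had the largest in each group.

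**Figure D3:**
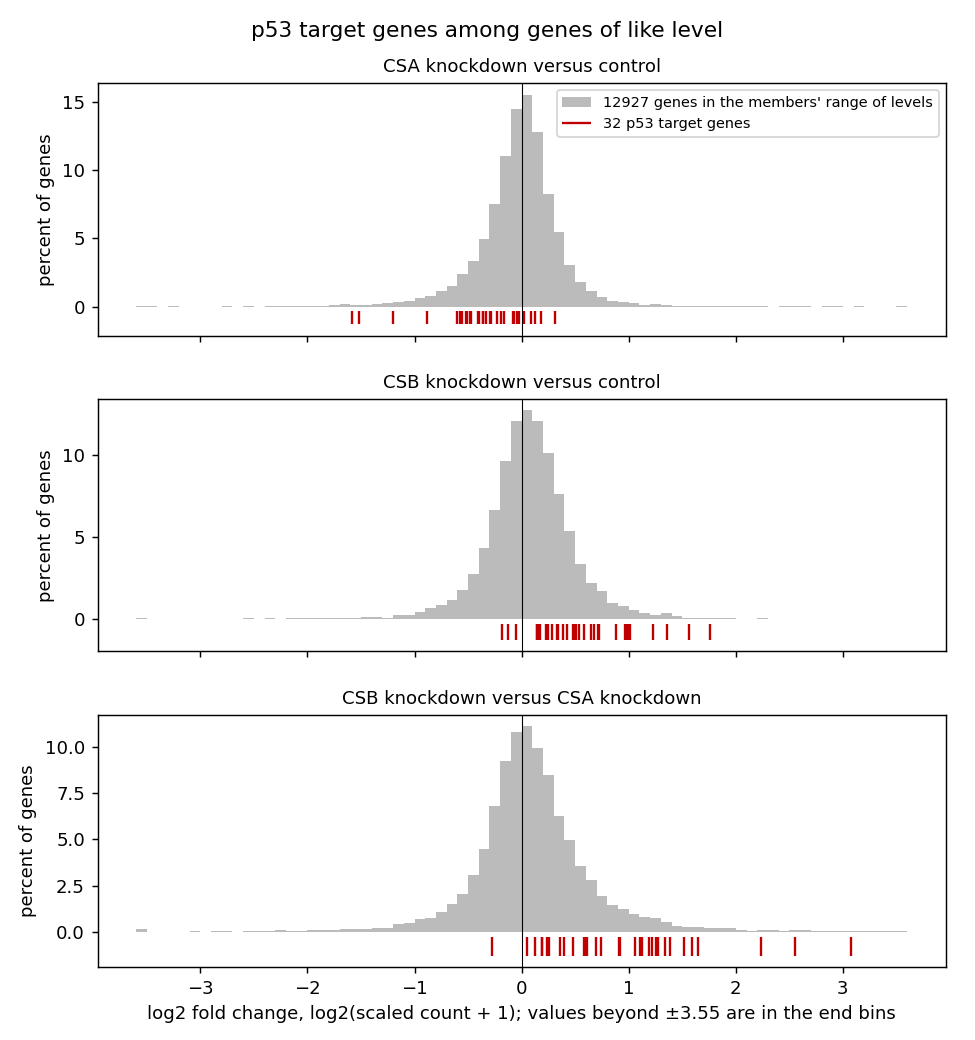
Percent of the 12927 genes in the members' range of mean levels (grey bars, y axis) by log2 fold change (x axis, log2(scaled count + 1)) in each comparison, with the 32 p53 targets as red ticks. The ticks lie mostly left of 0 with CSA knockdown (median -0.35) and mostly right of 0 with CSB knockdown (median 0.50) and between the knockdowns (median 0.92).

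The direct comparison of the knockdowns sets their libraries against each other, while the controls enter through the shared estimate of the spread. Of the 32 genes, 28 were higher after CSB than after CSA knockdown, 1 was lower and 3 did not pass, with a median of 0.92 against 0.09 over all tested genes. The share called was 29.4% of all tested genes (18.1% higher and 11.3% lower), and in the range of levels of the members 31.2% were higher. GDF15 showed the largest difference, with a CSB level 8.47-fold its CSA level (3.08 ± 0.09, adjusted p = 3.99e-10). ZMAT3 followed at 5.85-fold (2.55 ± 0.06, adjusted p = 7e-11) and PLK2 at 4.73-fold (2.24 ± 0.08, adjusted p = 2.28e-09). BBC3 stood at 3.12-fold, FAS at 3.08-fold and PLK3 at 2.87-fold. Both CSB libraries lay above both CSA libraries in 29 of the 32 genes, below in 1 and overlapped in 2, while 36.5% of all tested genes lay above and 23.7% below. With TMM scaling, all genes split into 4053 higher and 4208 lower, where the deposited scaling gave 5128 and 3212, and 25 members were higher and 1 lower.

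CDKN1A was 2.38-fold higher after CSB than after CSA knockdown (1.25 ± 0.05, adjusted p = 3.41e-09) and MDM2 2.42-fold (1.27 ± 0.06, adjusted p = 9.17e-09). Genes that did not pass against the controls could pass here, as did MDM4 (0.19 ± 0.06, adjusted p = 0.0383) and XPC (0.26 ± 0.07, adjusted p = 0.011). PMAIP1, below its controls in both knockdowns, was higher after CSB than after CSA knockdown (0.40 ± 0.07, adjusted p = 6.32e-04). CCNG1 was the gene called lower (-0.28 ± 0.06, adjusted p = 0.00249), while TRIAP1, TIGAR and SPATA18 did not pass (adjusted p = 0.251, 0.7 and 0.29). The calls of MDM4 and XPC were lost without any 1 library, XPC keeping its call without CSA library 2 (adjusted p up to 0.326 and 0.177). Those of CCNG1, FAS and RRM2B were lost when either CSB library was left out (adjusted p at most 0.0998, 0.0922 and 0.0702), that of AEN without CSB library 2 (0.0502) and that of CMBL without control library 1, CSA library 2 or CSB library 2 (up to 0.0856). MDM4, XPC and CMBL also lost this call with edgeR, DESeq2, TMM or median-of-ratios scaling or the length trend removed (adjusted p up to 0.346, 0.184 and 0.249), so these 3 calls depend on the scaling and the test.

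Summed by role, the targets kept the same order of groups in each role. The summed scaled count of all 32 genes was 35322 and 34857 in controls, 28149 and 28133 after CSA knockdown, and 52179 and 51717 after CSB knockdown. These sums were 0.802-fold and 1.48-fold the control mean. Arrest genes spread widest, at 0.719 and 0.747 of the control mean in the CSA libraries and 1.77 and 1.71 in the CSB libraries. Feedback genes spread least, at 0.926 and 0.862 and at 1.20 and 1.23. Death genes stood at 0.777 and 0.793 against 1.52 and 1.51, repair genes at 0.898 and 0.888 against 1.35 and 1.34, and metabolic and secreted genes at 0.758 and 0.765 against 1.50 and 1.46. Sums are set mostly by the genes with the most reads, such as CDKN1A and BAX.

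**Figure D4:**
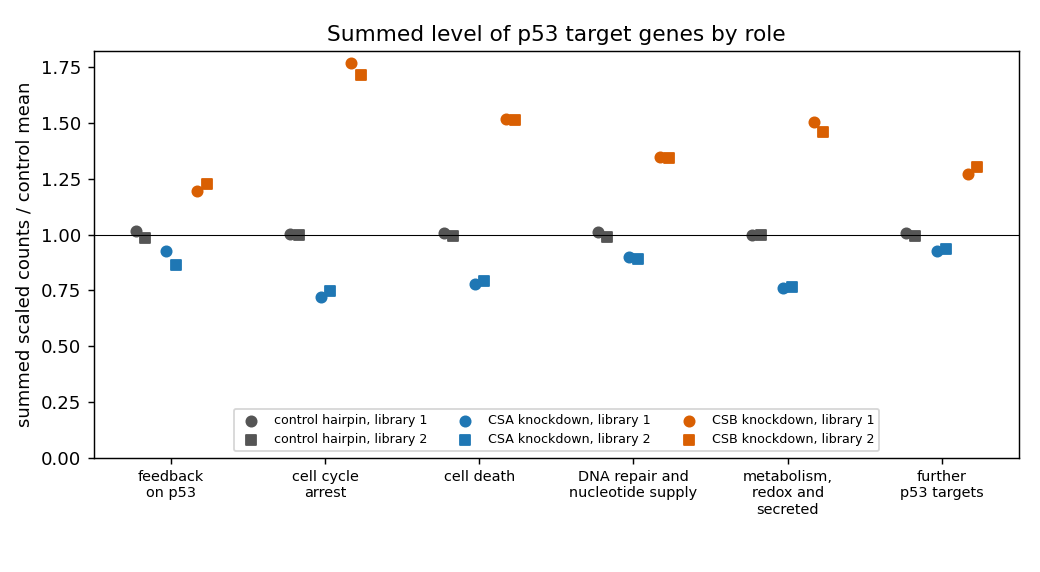
Summed scaled count of each role of p53 targets, and of 54 further p53 targets, divided by the mean of the control libraries (y axis, from 0), for each of the 6 libraries. The CSA libraries (blue) lie below 1 and the CSB libraries (orange) above 1 in every role, with the arrest genes widest apart at 0.719 and 0.747 against 1.77 and 1.71.

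Of 29 genes tested that act on p53, 5 rose and 10 fell with CSA knockdown (median -0.13), and 12 rose and 7 fell with CSB knockdown (median 0.11). In the range of levels of the p53 targets, 15.8% of genes were higher and 18.9% lower with CSA knockdown, and 27.1% higher and 16.5% lower with CSB knockdown, and no difference of the regulators from these shares was tested. RCHY1, which encodes PIRH2, a p53-induced ubiquitin ligase of p53, had the largest fall with CSA knockdown. It was at 431 and 467 in controls, 223 and 191 after CSA knockdown, and 417 and 437 after CSB knockdown, so its CSA libraries alone stood apart (-1.12 ± 0.09, adjusted p = 5.36e-06, against -0.07 ± 0.09, adjusted p = 0.664). RCHY1 shares 8.3% of its exon bases with THAP6 on the other strand, which did not pass with CSA knockdown (0.23, adjusted p = 0.133). COP1, another ligase of p53, rose most with CSA knockdown (0.34 ± 0.05, adjusted p = 5.66e-04), a call lost without control library 1 (adjusted p = 0.0629). With CSB knockdown, PPP1R13B, which encodes the p53 cofactor ASPP1, rose most (0.85 ± 0.06, adjusted p = 1.25e-06). USP10, a deubiquitinase of p53, and DAXX, which acts with MDM2, fell most (-0.75 ± 0.05, adjusted p = 9.74e-07, and -0.74 ± 0.05, adjusted p = 8.34e-07).

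**Figure D5:**
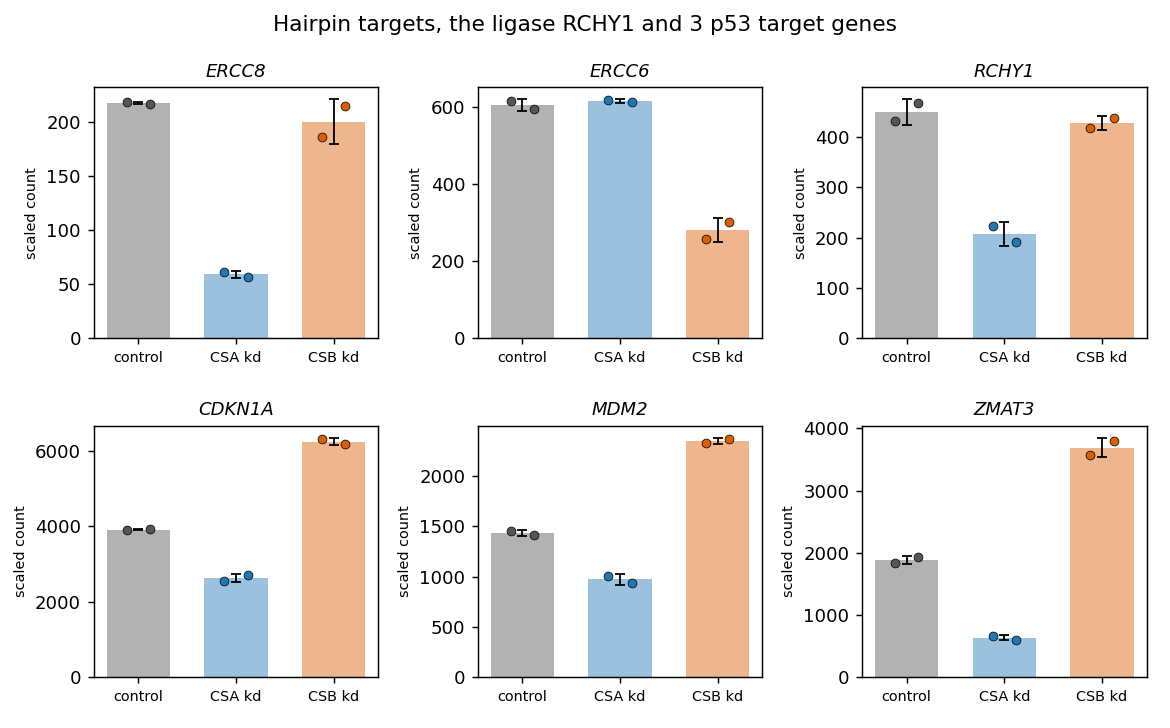
Scaled count (y axis, from 0) of the hairpin targets ERCC8 and ERCC6, of RCHY1, and of the p53 targets CDKN1A, MDM2 and ZMAT3 in each group; bars are means, error bars SD (n = 2) and points the libraries. CDKN1A, MDM2 and ZMAT3 are lowest after CSA knockdown and highest after CSB knockdown, whereas RCHY1 is low after CSA knockdown alone (223 and 191).

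A second list of 56 further p53 targets, of which 54 were listed and 51 tested, had medians nearer to 0. With CSA knockdown 16 fell and 5 rose (median -0.13), and with CSB knockdown 33 rose and 2 fell (median 0.36). These counts stand against 10.4% lower and 8.37% higher among all tested genes with CSA knockdown, and 14.8% higher and 8.86% lower with CSB knockdown. KITLG, the ligand of the KIT receptor, fell by 1.16 ± 0.08 (adjusted p = 9.61e-07) and was 0.16 ± 0.08 with CSB knockdown (adjusted p = 0.177). VWCE moved both ways, by -0.74 ± 0.09 (adjusted p = 7.97e-05) and 0.76 ± 0.09 (adjusted p = 5.64e-05). The summed level of the list was 0.924 and 0.936 of the control mean in the CSA libraries and 1.27 and 1.3 in the CSB libraries. Leaving out 1 library left 4 to 9 of the further targets lower with CSA knockdown and 10 to 28 higher with CSB knockdown.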

How the data were processed

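Paired-end mRNA libraries (Illumina HiSeq, per the labels' series design) of 3 groups of 2 were used. The submitters' processing notes list HISAT2 2.0.4, hg38 and FastQC, whereas the counter, its strand setting, the annotation and the normalization are not stated in any source used. Values deposited by the authors as FPKM are a signal: gene reads divided by 1 size factor per library, without gene length. All were whole multiples of the smallest within 0.01, so reads were recovered by division (100% whole). Genes with a group mean of at least 1 were tested with limma 3.58.1 (R 4.3.3, mean-variance trend, all 6 libraries, pseudocount 1, Benjamini-Hochberg). In data simulated for CSA knockdown versus control, the same fit recovered 100% of 200 well expressed genes changed 2-fold among 26989. The simulation used the same dispersion for all genes and libraries. It does not measure how well smaller changes or low genes are found. Alternatives were edgeR 4.0.16 and DESeq2 1.42.0 on the recovered reads, other scalings, pseudocounts, filters, 2-group fits, a replicate block and leaving out each library. Gene positions and lengths are those deposited with the values, and exon overlaps are from GENCODE. All 32 members are named, and regulators and further targets by largest change among calls. Members and lists were chosen with earlier results of these data known. Of 32575 gene IDs, 31618 have a current symbol. Libraries of a group differed beyond sampling noise (chi-square per gene 2.13, 6.15 and 3.14). Some genes of the regulator and further target lists are not reported here by name.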

Additional observations from a re-analysis of the deposited data

How the results depend on the processing

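Of the calls against controls, 9 of 23 with CSA knockdown and 15 of 24 with CSB knockdown held under all 18 alternatives, as did 22 of 29 between the knockdowns, and no called member changed sign. Losses came mostly from leaving out a library, where the lone library is assumed to vary like the others. Leave-one-out ranges for the p53 targets were 0 to 1 higher and 9 to 14 lower with CSA knockdown, 16 to 22 higher and 0 to 1 lower with CSB knockdown, and 22 to 26 higher and 0 to 1 lower between the knockdowns. For further targets they were 1 to 3 and 4 to 9, 10 to 28 and 1, and 18 to 28 and 1 to 3. For regulators they were 0 to 6 and 4 to 9, 4 to 10 and 3 to 6, and 8 to 14 and 4 to 6. For all genes they were 397 to 1369 and 729 to 1937, 1008 to 3713 and 728 to 2248, and 2782 to 3768 and 1602 to 2539. Further targets higher with CSA knockdown numbered 8 with edgeR and 8 at a group mean of at least 10, against 5. With CSB knockdown, 2 p53 targets were lower with edgeR, median-of-ratios scaling or the length trend removed, PMAIP1 being added. A group mean of at least 10 added TIGAR and XPC as higher with CSB knockdown. The fit of the groups compared added TIGAR, XPC and MDM4. DESeq2 called 20 further targets higher and 1 lower, and 2212 genes of all higher, with CSB knockdown, and 3132 higher between the knockdowns. A pseudocount of 10 or no filter left 1 further target lower. The median of all genes with CSB knockdown was 0.10 as deposited, 0.03 with TMM, 0.02 with median-of-ratios scaling and -0.01 with the length trend removed, and the members' median was 0.43, 0.42 and 0.40 with these. Deviations of libraries with the same replicate number were nearly uncorrelated between groups (r = -0.04, -0.03 and -0.03 over 13397 genes). Whether replicate numbers pair the libraries is not stated in the labels. The replicate block left 21 members lower with CSA knockdown, TNFRSF10B being lost, and changed no other member's call. Depth limits FAS most, at 16.3 to 68.5.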
